A study of Mus musculus with 10 samples.

Results

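The SOCS family genes Socs1, Socs2, Socs3, Socs5, Socs7 and Cish were chosen by name, because their proteins are feedback inhibitors of cytokine signals, and all 6 were found among the 53656 genes of the deposited tables. They were followed in 10 RNA sequencing libraries of transferred CD4 T cells from the lymph node draining a B16-GP61 melanoma in mice. The transferred cells carried the transgenic SMARTA T cell receptor and differed at Tox, with 4 wild type (WT) and 6 knockout (KO) libraries. They went in as naive cells, B6 hosts had been given cytoxan (cyclophosphamide), and cells were collected 11 days after transfer. KO cells were sorted as CD4+, Ly5.1+, Ly5.2- and low for PD1, LAG3 and CD39. WT cells were sorted as CD4+, Ly5.1+, Ly5.2+ and high for these 3 proteins, so genotype, sort gate and congenic background cannot be told apart. The labels name neither the animals behind the replicates nor the deleted part of Tox, and p-values therefore reflect only how far these libraries spread, which may be technical.

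When a cytokine binds its receptor, Janus kinases (JAKs) bound to the receptor phosphorylate STAT factors, which enter the nucleus and switch on target genes. Among those targets are the SOCS genes themselves. A SOCS protein has an SH2 domain that holds phosphorylated receptors or kinases and a SOCS box that recruits elongin B, elongin C and cullin 5 to mark bound proteins with ubiquitin. SOCS1 and SOCS3 can also block JAK activity directly. In T cells SOCS1 is best known for limiting interferon gamma and common gamma chain signals, SOCS3 for limiting signals through gp130, and CIS, the product of Cish, for limiting STAT5 signals and signals of the T cell receptor.

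Promoters are shown because STAT and interferon response sites in them are how cytokines are known to reach several genes of this family. Those of Socs2, Socs5 and Socs7 are missing only because the promoter source used did not hold them. The RefSeq table of promoters on GRCm38.p6 held 3 of the 6 genes, each as 250 bases before to 50 bases after the transcription start. Capitals mark matches to 2 motifs searched on both strands: TTCNNNGAA, the palindromic core bound by STAT dimers (GAS), and GAAA followed after 2 free bases by another GAAA, the core of the interferon response element bound by interferon regulatory factors (ISRE).
Cish, chr9:107296409-107296708, plus strand: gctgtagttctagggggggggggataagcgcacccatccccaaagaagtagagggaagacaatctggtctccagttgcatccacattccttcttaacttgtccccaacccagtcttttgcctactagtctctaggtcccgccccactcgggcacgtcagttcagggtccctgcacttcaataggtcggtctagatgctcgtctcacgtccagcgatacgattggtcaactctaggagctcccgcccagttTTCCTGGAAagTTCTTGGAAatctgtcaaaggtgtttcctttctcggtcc
Socs3, chr11:117969317-117969616, minus strand: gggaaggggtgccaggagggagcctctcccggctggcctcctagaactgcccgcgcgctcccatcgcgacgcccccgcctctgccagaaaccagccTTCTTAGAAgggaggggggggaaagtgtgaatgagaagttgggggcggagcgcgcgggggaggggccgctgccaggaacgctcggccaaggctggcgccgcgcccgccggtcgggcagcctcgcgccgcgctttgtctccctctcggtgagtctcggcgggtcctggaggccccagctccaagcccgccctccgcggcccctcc
Socs1, chr16:10785487-10785786, minus strand: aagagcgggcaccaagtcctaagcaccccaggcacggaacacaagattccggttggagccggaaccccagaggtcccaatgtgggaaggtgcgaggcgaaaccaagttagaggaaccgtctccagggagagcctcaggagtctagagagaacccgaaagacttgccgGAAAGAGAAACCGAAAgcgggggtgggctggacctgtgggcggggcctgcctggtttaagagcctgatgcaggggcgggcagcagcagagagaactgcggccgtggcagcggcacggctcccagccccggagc
The Cish window held 2 GAS matches, at bases 1 to 9 and 12 to 20 counted from the RefSeq start. The Socs3 window held 1, which began 154 bases before the start. The Socs1 window held no GAS match and 2 ISRE matches on the same strand that share bases and together ran from 83 to 68 bases before the start. A GAS match was present in 8.30% of 32851 promoter windows of this length, 2 or more GAS matches in 0.457% and an ISRE match in 3.44%. Such matches are letters in a window and not measured binding.

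In the files' annotation (GENCODE M17, GRCm38.p6) Socs1 lay at chr16:10782240-10785536 on the minus strand, Socs2 at chr10:95385362-95417180 on the minus strand and Socs3 at chr11:117966079-117970047 on the minus strand. Socs5 lay at chr17:87107679-87137583, Socs7 at chr11:97362551-97398542 and Cish at chr9:107296026-107302784, each on the plus strand. Counts covered all annotated exons of a gene, without regard to strand per the counting command. Cish exons shared 479 and 261 bases with 2 unnamed minus strand genes, so a few of its reads may belong to them, and no other member shared exon bases with another gene.

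The WT libraries held between 31939816 and 45481478 counts and the KO libraries between 36028980 and 55784453. Tox, the targeted gene, was lower in KO (log2 fold change -2.93 with SE 0.48, edgeR adjusted p = 0.010), with all KO libraries below all WT libraries. Pdcd1, which encodes PD1, was also lower (-1.34, edgeR adjusted p = 0.016), while Lag3 (1.15, edgeR adjusted p = 0.59) and Entpd1, which encodes CD39 (-3.48, edgeR adjusted p = 0.21), did not pass. Levels are given as CPM, counts scaled to a common library size. The 8 T cell markers, led by Trac and Trbc2, summed to 15402 to 30430 CPM in KO libraries and 8702 to 21293 CPM in WT libraries. None of the 8 passed, and 7 had a log2 fold change above 0 (median 0.69). Cd4 averaged 1236 CPM in WT and 1331 CPM in KO, and Cd8a 28.6 and 6.36 CPM. Transcripts of other cells differed with genotype. The 10 B cell and plasma cell markers, led by Ighm and Cd79a, summed to 971 to 1387 CPM in KO libraries and 4718 to 20549 CPM in WT libraries, and 9 of the 10 fell. The 10 myeloid and dendritic markers, led by Lyz2 and Csf1r, summed to 5.08 to 188 CPM in KO and 1305 to 7200 CPM in WT. Of the 9 tested, 3 fell, Lyz2 among them, and 6 did not pass. Csf1r did not pass (edgeR adjusted p = 0.14), and its KO and WT libraries overlapped. The 4 NK cell markers, led by Klrb1c and Ncr1, summed to 168 to 273 CPM in KO and 8.19 to 64.8 CPM in WT, and Klrb1c, which gave nearly all of the KO sum, rose. The other 3 did not go with it: Ncr1 averaged 0.593 CPM in KO and 5.35 CPM in WT, Klre1 0.0638 and 1.24 CPM, and Klra8, which was not tested, 0.0184 and 0.282 CPM. None of the markers of CD8 T cells, melanoma, stroma or erythroid cells passed. In the B cell and the myeloid list the lowest WT sum was that of WT replicate 1. SOCS genes are also expressed by B cells and myeloid cells, and the part of those cells in the SOCS values was not tested. In such bulk libraries fewer expressing cells and less RNA per cell cannot be told apart.

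Across genotypes, none of the 6 SOCS family genes passed the test. By edgeR's quasi-likelihood test, with a Benjamini-Hochberg adjusted p under 0.05, 3.13% of 14214 tested genes passed, of which 61 were higher in KO (0.429%) and 384 lower (2.7%). All 6 members passed the filter on low counts. At an unadjusted p under 0.05 the count was also 0, where at least 2539 of the 14214 tested genes were under it. DESeq2 called 0 members, against 613 genes higher and 999 lower, and limma-voom 0, against 204 and 680. limma-voom with quality weights, which called 2562 genes higher and 2768 lower, called 1 member, Socs3. The median log2 fold change was 0.29 over the 6 members and -0.12 over all genes tested, with 4 members above 0 and 2 below. The groups overlapped for all 6, whereas 8.9% of tested genes had KO and WT libraries that did not overlap (2.59% with KO above and 6.31% with KO below). The 95% intervals were wide, so differences of several fold were not detectable for most members.

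**Figure D1:**
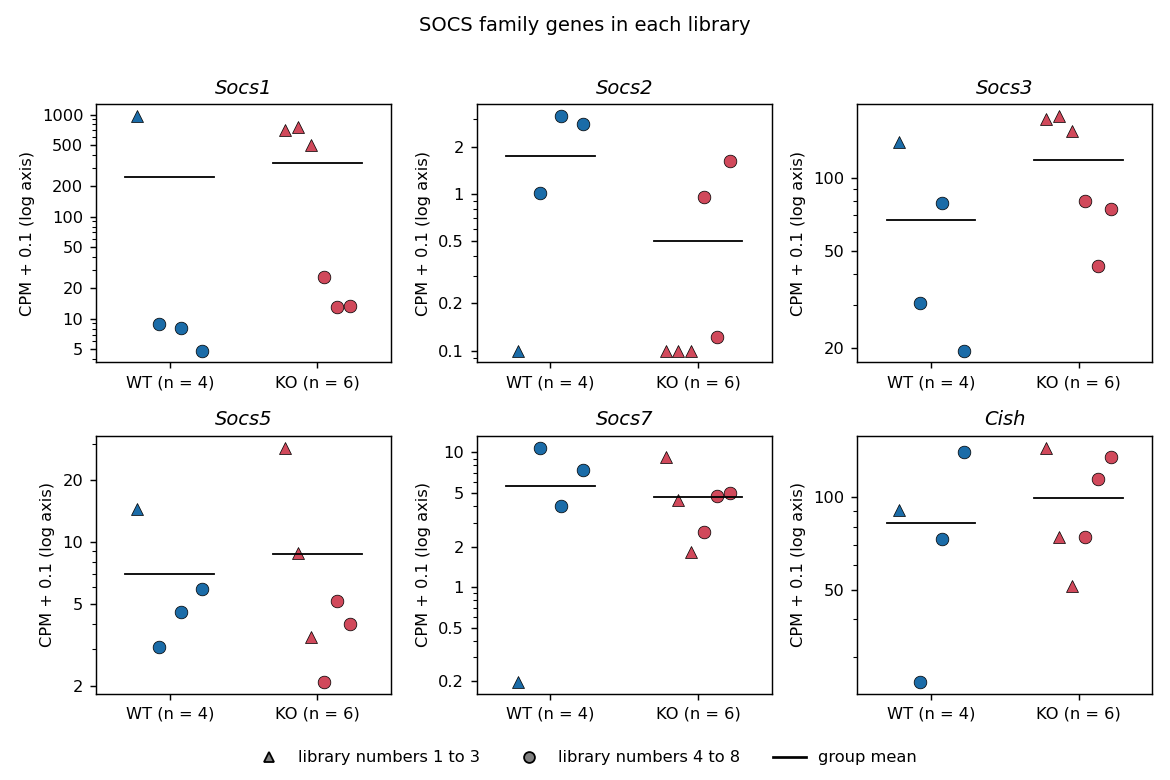
Level of each SOCS family gene in each library, as CPM plus 0.1 on a log axis, by genotype. Triangles are library numbers 1 to 3, circles library numbers 4 to 8 and bars group means; for Socs1 the triangles lie between 504 and 965 CPM and the circles between 4.76 and 25.7 CPM in both genotypes.

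Socs1, which encodes the main brake on interferon gamma signals in T cells, was the member with the largest spread. In WT it stood at 965 CPM in replicate 1, 8.70 CPM in replicate 2, 7.93 CPM in replicate 3 and 4.76 CPM in replicate 4. In KO it stood at 713, 763 and 504 CPM in replicates 1, 2 and 3, and at 25.7, 12.9 and 13.2 CPM in replicates 4, 5 and 6. Each genotype thus held libraries at 504 CPM or more and libraries at 25.7 CPM or less. The means were 338.6 ± 363 CPM in KO (SD, n = 6) and 247 ± 479 CPM in WT (SD, n = 4). The log2 fold change was 0.46 (SE 1.67, 95% interval -3.23 to 4.15, edgeR adjusted p = 0.91).

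The high and low Socs1 libraries were separated by the library numbers in the labels. The high libraries were KO replicates 1 to 3, numbered 1 to 3, and WT replicate 1, numbered 2; all libraries numbered 4 to 8 were low. The labels do not say what the numbers stand for, and the boundary between 3 and 4 was chosen after the data were seen. The 4 libraries numbered 1 to 3 had 14365 to 15873 genes with a count and the 6 numbered 4 to 8 had 16348 to 19775, although the former were mostly deeper (40987266 to 55784453 against 31939816 to 42111992 counts). Within KO, mean log2 CPM of Socs1 was 5.31 higher in numbers 1 to 3 than in 4 to 8, a difference that exceeded in size those of 99.1% of tested genes. Within WT, replicate 1 exceeded the mean of the other 3 by 7.12.

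Within library numbers 4 to 8, Socs1 was higher in all 3 KO libraries (12.9 to 25.7 CPM) than in all 3 WT libraries (4.76 to 8.70 CPM). There the log2 fold change was 1.32 (SE 0.45, edgeR adjusted p = 0.13), and 8.03% of 14378 genes passed in that fit. Of the 6 members Socs1 alone did not overlap there, against 33.5% of 14214 genes (13.0% with KO above and 20.5% with KO below). Within numbers 1 to 3 the direction was the opposite, with the 1 WT library at 965 CPM above the KO libraries at 504 to 763 CPM (log2 fold change -0.51 with SE 0.33, edgeR adjusted p = 0.39). With 1 WT library in that set, the SE and p of every gene there rest on the spread of the 3 KO libraries, and the lone library is assumed to vary like them. With the number set as a term in the fit of all 10 libraries the value was 0.59 (SE 0.39, edgeR adjusted p = 0.44). Leaving out WT replicate 1 moved the overall value to 5.57 (edgeR adjusted p = 0.063), since all 3 WT libraries left were low. All KO libraries were above those 3 WT libraries, as were those of 8.41% of genes.

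Socs3, the inhibitor of gp130 cytokine signals, also followed the library number. In WT it stood at 139.7 CPM in replicate 1, 30.5 CPM in replicate 2, 78.5 CPM in replicate 3 and 19.3 CPM in replicate 4. In KO it stood at 174, 179 and 155 CPM in replicates 1 to 3 and at 79.7, 43.1 and 74.4 CPM in replicates 4 to 6. The 4 libraries numbered 1 to 3 were all above the 6 numbered 4 to 8. Means were 118 ± 58.6 CPM in KO (SD, n = 6) and 67.0 ± 54.8 CPM in WT (SD, n = 4). Its log2 fold change of 0.81 had the smallest p of the family (SE 0.60, 95% interval -0.52 to 2.14, edgeR adjusted p = 0.52, and 0.21 before adjustment). Within numbers 4 to 8 it was 0.65 (edgeR adjusted p = 0.51), within numbers 1 to 3 it was 0.32 (edgeR adjusted p = 0.50), and with the number set as a term it was 0.50 (edgeR adjusted p = 0.51). With quality weights in limma-voom it passed at 1.74 (limma adjusted p = 0.015), and without WT replicate 1 edgeR gave 1.46 (edgeR adjusted p = 0.12).

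Cish, a STAT5 target whose product limits STAT5 and receptor signals, varied least over the libraries. It stood at 91.1, 24.8, 72.9 and 141 CPM in WT replicates 1 to 4. In KO replicates 1 to 6 it stood at 145, 74.3, 51.3, 74.3, 115 and 135 CPM. High and low libraries occurred under both genotypes and both sets of library numbers. The means were 99.2 ± 38.0 CPM in KO (SD, n = 6) and 82.4 ± 47.9 CPM in WT (SD, n = 4). The log2 fold change was 0.27 (SE 0.47, 95% interval -0.76 to 1.30, edgeR adjusted p = 0.80), the narrowest interval of the family. It turned to -0.50 (edgeR adjusted p = 0.57) when libraries were scaled to 8 T cell genes (the CD3 chains, the receptor constant genes and Cd4), a scaling that moved the median of all genes by -0.80 and gave 17 genes higher and 1862 lower.

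Socs2, which encodes an inhibitor of growth hormone signals that is also induced by STAT5, was close to absent. No count was found in KO replicates 1, 2 and 3 or in WT replicate 1. A count of 0 there allows up to 3 counts, or 0.0732, 0.0590, 0.0538 and 0.0660 CPM of total counts in these 4 libraries. The other WT libraries held 0.913, 3.03 and 2.68 CPM in replicates 2, 3 and 4, and KO replicates 4, 5 and 6 held 0.863, 0.0220 and 1.53 CPM, the middle value being 1 count. Such limits cover counting error only, since amplified reads without molecular identifiers are not independent molecules. Of the 6 libraries numbered 4 to 8, 5 were above these limits and KO replicate 5 was not. The log2 fold change of -2.03 did not pass (SE 1.86, 95% interval -6.14 to 2.08, edgeR adjusted p = 0.61), and within numbers 4 to 8 it was -1.43 (edgeR adjusted p = 0.50).

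Socs5 and Socs7, members with long N-terminal regions that are less tied to induction by cytokines, were low. Socs5 stood at 14.4, 3.00, 4.45 and 5.80 CPM in WT replicates 1 to 4 and at 28.6, 8.73, 3.36, 1.98, 5.06 and 3.88 CPM in KO replicates 1 to 6. The highest library of each genotype was replicate 1, and the rest overlapped. Its log2 fold change was 0.32 (SE 0.82, 95% interval -1.49 to 2.12, edgeR adjusted p = 0.87), and it turned to -0.46 without KO replicate 1 and to -0.19 within numbers 4 to 8 (edgeR adjusted p = 0.79 and 0.86). Socs7 stood at 0.0967 CPM, or 4 counts, in WT replicate 1 and at 10.8, 3.91 and 7.27 CPM in WT replicates 2, 3 and 4. In KO it ranged from 1.72 to 9.19 CPM with a median of 4.50. Its log2 fold change was -0.28 (SE 0.91, 95% interval -2.30 to 1.74, edgeR adjusted p = 0.90). It was 0.32 without WT replicate 2 and -0.68 without WT replicate 1 (edgeR adjusted p = 0.94 and 0.45).

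**Figure D2:**
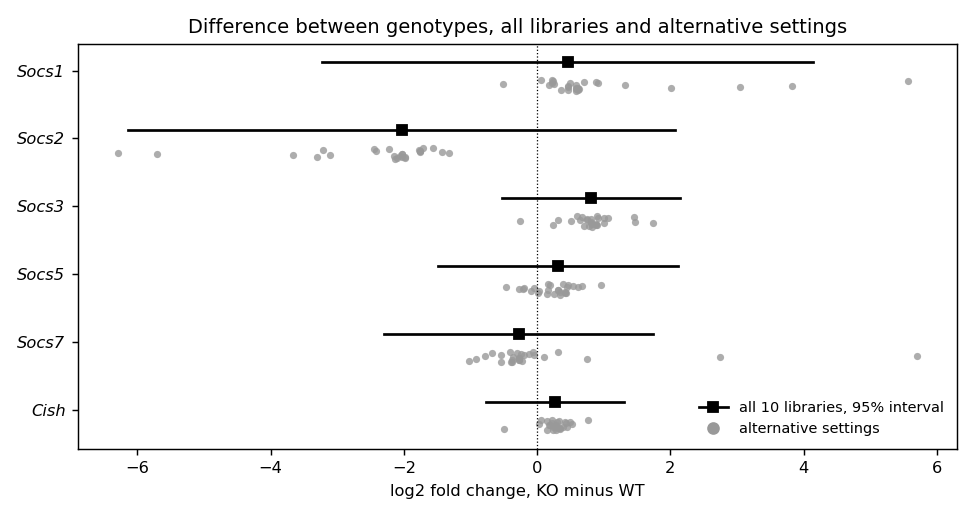
Log2 fold change of KO minus WT for each SOCS family gene: squares and lines are the edgeR value over all 10 libraries with its 95% interval, and grey points the values under the alternative settings. All 6 intervals include 0; grey points of Socs1 reach 5.57 and those of Socs7 reach 5.71, the value from library numbers 1 to 3, a set with a single WT library.

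The order of levels within the family was read per length, as CPM per kilobase of annotated exon. Mean levels per kilobase were 116 in KO and 84.8 in WT for Socs1, 40.7 and 23.2 for Socs3, 15.5 and 12.8 for Cish, 1.96 and 1.57 for Socs5, 0.625 and 0.758 for Socs7, and 0.0423 and 0.174 for Socs2. Socs1 ranked first in all 4 libraries numbered 1 to 3 and in none of those numbered 4 to 8, where Socs3 ranked first in 4 and Cish in 2. Socs3 exceeded Cish in 8 of 10 libraries, so the order of these neighbours was not fixed, and Socs5 exceeded Socs7 in 9 of 10. Socs1, Socs3 and Cish exceeded Socs5, Socs7 and Socs2 in every library, and Socs2 was lowest in every library on this scale. Annotated exons span several transcript models, 6419 bases for Cish and 9531 for Socs2, against 2850 and 2222 bases for their longest coding transcripts. Per kilobase of the longest coding transcript, Socs2 exceeded Socs5 in 1 library and Socs7 in 3 of 10, and Socs3 exceeded Cish in 7 of 10, so the place of Socs2 among the low members depended on the length used.

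**Figure D3:**
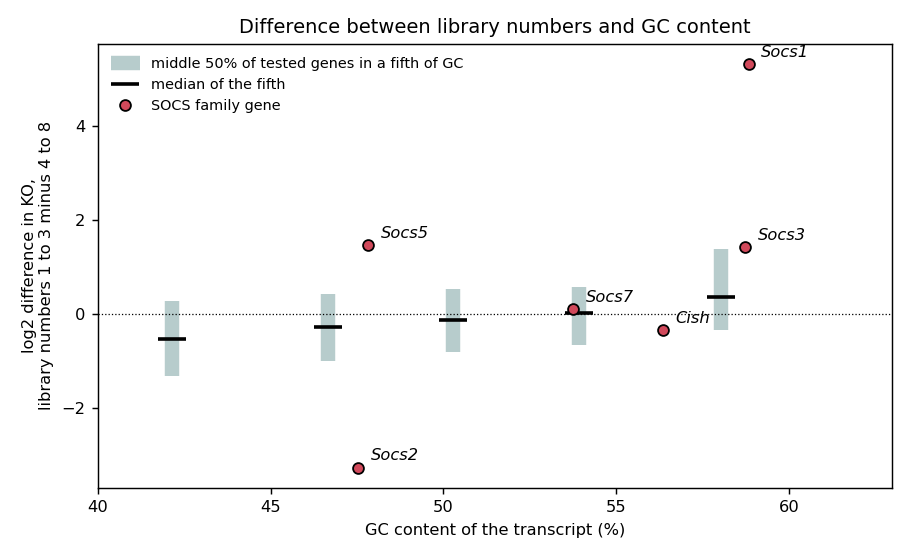
Difference in mean log2 CPM between KO libraries numbered 1 to 3 and 4 to 8 against the GC content of the transcript. Bars show the middle 50% and dashes the median of tested genes in 5 equal bins of GC content. Genes outside the bars are therefore common by construction. Socs1 at 5.31, Socs2 at -3.27 and Socs5 at 1.47 lie outside the bar of their bin. Socs3 at 1.41 and Cish at -0.35 lie just past the edge of theirs, and Socs7 at 0.09 lies inside.

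In total Socs1 and Socs3 did not overlap between library numbers 1 to 3 and 4 to 8, both being above in 1 to 3, against 18.7% of tested genes (11.2% above and 7.56% below). Socs2 was separated by value as well, but by 1 count against libraries at 0, which is within the limit that a count of 0 allows. GC content of the transcript also moved with this difference over the whole table. In KO, the median log2 difference between the library numbers rose over 5 equal bins from -0.55 at the lowest GC content to 0.36 at the highest, over the 81.8% of tested genes with a value. The longest coding transcripts of Socs1 and Socs3 had 58.8% and 58.7% GC, above 92.9% and 92.5% of those genes, and that of Socs2 had 47.5%. Cish, at 56.4% and also in the highest bin, differed by -0.35, and Socs5, at 47.8%, by 1.47. The part of GC content in the members' values was not tested.

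Patterns most like each member were sought among tested protein-coding genes averaging 8 CPM or more, by the mean absolute difference between centred log2 CPM profiles over the 10 libraries. Nearest to Socs1 were Get4 (0.22), Endog (0.28) and Orai1 (0.35), where the median candidate differed by 2.93. Nearest to Socs3 were Cacfd1 (0.20), Auh (0.23) and Bcl7b (0.23), with a median of 1.07. Nearest to Cish were Trim56 (0.35), Bcl2l1 (0.38) and Ccnd2 (0.38), with a median of 0.90. Socs5 was nearest to Fkbp5 (0.43), Trak1 (0.45) and Usp30 (0.48), with a median of 1.15. Socs7 was nearest to Ppp4r1 (0.42), Ganab (0.44) and Zfp7 (0.44), with a median of 1.33. Nearest to Socs2 were Hsp90b1 (0.94), Cltc (1.03) and Mndal (1.07), with a median of 2.53. None of these 18 genes passed the test of genotype. All values share libraries, depth and composition, and the distances are descriptions.

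Of 76 pathway genes listed, 74 were tested, 1 rose, 1 fell and 72 did not pass, a share near the 3.13% of all genes. DESeq2 called 10 higher and 4 lower, against 613 and 999 of all 14214 genes. limma-voom with quality weights called 19 and 15, against 2562 and 2768 of all 14214. The median log2 fold change was 0.04. The gene that rose was Il27ra, which encodes the signalling chain of the receptor for IL-27, a cytokine that acts through gp130. It stood at 191, 325, 596 and 271 CPM in WT replicates 1 to 4 and at 1194 to 1763 CPM in KO with a median of 1382, without overlap. The log2 fold change was 2.04 (SE 0.33, edgeR adjusted p = 0.0092). It passed in 9 of the 10 fits without 1 library (edgeR adjusted p = 0.061 without WT replicate 4), and within numbers 4 to 8 it was 1.87 (edgeR adjusted p = 0.031). When libraries were scaled to the 8 T cell genes it was 1.08 and did not pass (edgeR adjusted p = 0.19).

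**Figure D4:**
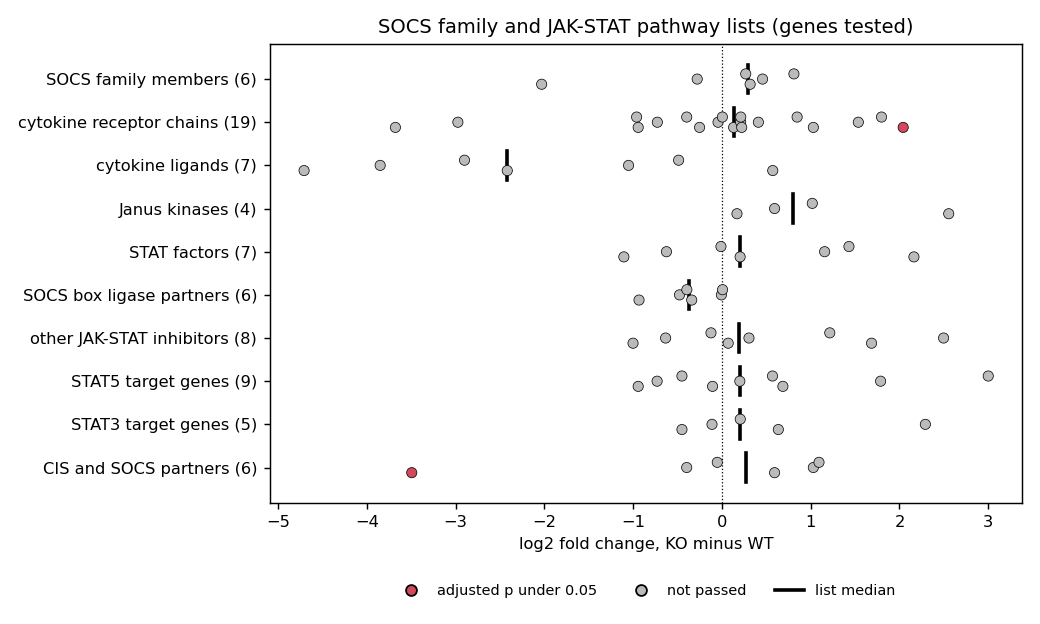
Log2 fold change of KO minus WT for every tested gene of the SOCS family and of the pathway lists described in the text, with the number of genes tested. Red points passed the test (Il27ra at 2.04 and Tec at -3.49), grey points did not, and bars are list medians.

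Cytokine receptor chains, the entry point of these signals, had 1 rise (Il27ra) and 0 falls among 19, with a median log2 fold change of 0.13. Il2rb and Il2rg, the signalling chains of the IL-2 receptor, stood close in both genotypes at means of 1353 and 967 CPM in KO and 1348 and 835 CPM in WT. None of 7 tested cytokine ligands passed, 6 of them below 0 (median -2.42). Il21, the most abundant, averaged 133 CPM in KO and 275 CPM in WT (edgeR adjusted p = 0.36). Ifng and Il10, named after their values were seen, were lower in all KO libraries than in all WT libraries without passing. Ifng, the cytokine that SOCS1 is best known to restrain, stood at 35.7, 41.6, 11.5 and 76.8 CPM in WT replicates 1 to 4 and at 0.0212 to 5.28 CPM in KO (-3.85, SE 1.07, edgeR adjusted p = 0.089). It passed in 5 of 27 alternative settings, DESeq2 (adjusted p = 0.0025) and numbers 4 to 8 (-3.06, edgeR adjusted p = 0.036) among them. Il10, an inhibitory cytokine that signals through STAT3, stood at 8.20 to 63.8 CPM in WT and 0 to 5.84 CPM in KO (-4.71, SE 1.51, edgeR adjusted p = 0.14). Il10 passed in 4 of 27 alternative settings, DESeq2 (adjusted p = 0.012) among them. None of the 4 Janus kinases passed and all 4 were above 0 (median 0.81). Jak3, the kinase bound to the common gamma chain and a target of SOCS proteins, stood at 407 to 1623 CPM in KO and 12.0 to 375 CPM in WT (log2 fold change 2.55 with SE 0.91, edgeR adjusted p = 0.18). Its KO libraries were above all WT libraries.

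None of 7 STAT factors passed (median 0.20). The most abundant, Stat6, which transmits IL-4 signals, averaged 640.1 CPM in KO and 555 CPM in WT (edgeR adjusted p = 0.87). Stat5a, a factor that drives Cish and Socs2, was named after its values were seen. It stood at 20.97, 56.4, 174 and 61.5 CPM in WT replicates 1 to 4 and at 183 to 432 CPM in KO, without overlap (log2 fold change 2.16 with SE 0.54, edgeR adjusted p = 0.061). It passed in 6 of 27 alternative settings. Among them were DESeq2 (2.09, adjusted p = 0.0039) and the number set as a term (2.54, edgeR adjusted p = 0.027). Within numbers 4 to 8 it was 2.08 (edgeR adjusted p = 0.051). Its neighbour Stat5b averaged 132 CPM in WT against 355 CPM in KO, which did not pass (1.43, edgeR adjusted p = 0.11). Both genes are near-identical over parts of their coding sequence, and reads that matched several places were not counted.

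**Figure D5:**
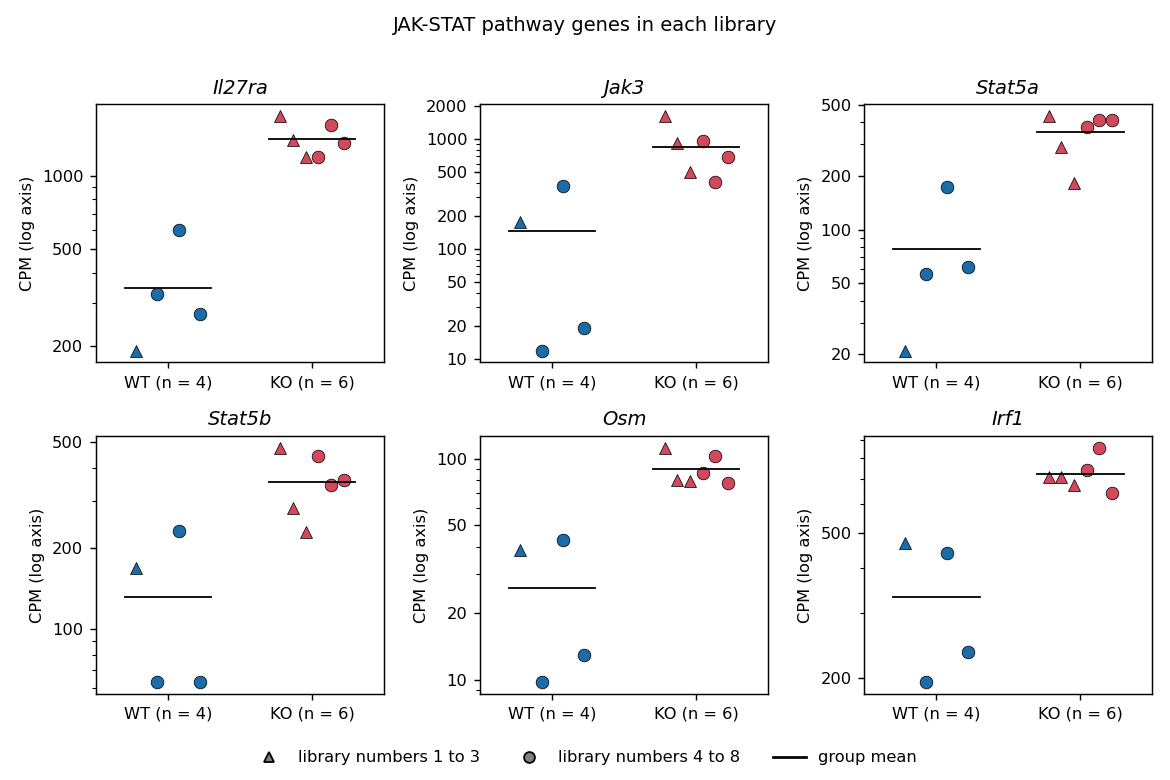
Level of 6 JAK-STAT pathway genes in each library, as CPM on a log axis, by genotype, with triangles for library numbers 1 to 3, circles for 4 to 8 and bars for group means. KO libraries lie above WT libraries for Il27ra, Jak3, Stat5a, Osm and Irf1 and meet them for Stat5b; of these genes Il27ra passed the test over all 10 libraries.

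STAT5 targets other than the SOCS genes had no call among 9 (median 0.20). Osm, a cytokine gene induced by STAT5, stood at 78.2 to 113 CPM in KO and at 9.73 to 42.9 CPM in WT (log2 fold change 1.79 with SE 0.46, edgeR adjusted p = 0.067), and Pim2, a survival kinase, at 296 to 957 CPM and 8.19 to 147 CPM (3.00, SE 0.81, edgeR adjusted p = 0.083). Both were named after their values were seen. They passed in 5 and 4 of 27 alternative settings, DESeq2 among them (adjusted p = 0.0011 and 7.4e-04). DESeq2 called 613 of all genes higher and 999 lower. Ccnd3, a cyclin of the G1 phase and the most abundant of the list, was 0.57 (edgeR adjusted p = 0.68), and Il2ra, the alpha chain of the IL-2 receptor, was -0.94 (edgeR adjusted p = 0.57). Irf1, an interferon response factor named after its values were seen, stood at 643 to 855 CPM in KO and 194 to 468 CPM in WT (1.11, SE 0.29, edgeR adjusted p = 0.067). Of the 27 alternative settings 6 called Irf1, DESeq2 among them (adjusted p = 0.0018). STAT3 targets had no call among 5 (median 0.21), with Junb, an AP-1 subunit, at 2.29 (SE 0.98, edgeR adjusted p = 0.25).

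Partners that carry out the SOCS box's work, elongins, cullin 5 and their cofactors, had no call among 6 (median -0.37), and Nedd8, the modifier that activates cullins, averaged 177 CPM in KO and 232 CPM in WT (edgeR adjusted p = 0.61). Other inhibitors of the pathway had no call among 8 (median 0.19). Ptpn6, which encodes the phosphatase SHP-1, averaged 1827 and 1991 CPM in KO and WT (edgeR adjusted p = 0.86). Among 6 signalling proteins listed as partners of CIS or SOCS proteins, Tec fell and 5 did not pass. Tec, a kinase of antigen receptor and cytokine signals, stood at 1.59 CPM in WT replicate 1, 115, 89.2 and 69.2 CPM in WT replicates 2 to 4, and 4.31 to 10.3 CPM in KO. WT replicate 1 lay below every KO library, and the other WT libraries lay above all KO libraries. B cell markers summed to 4718 CPM in WT replicate 1 and to at most 1387 CPM in KO libraries. In WT replicates 2 to 4 they summed to 14044 to 20549 CPM. The part of other cells in the Tec values was not tested. The log2 fold change was -3.49 (SE 0.79, edgeR adjusted p = 0.041), and the value stayed between -3.90 and -3.11 in the 10 fits without 1 library. The call was kept in 1 of them, the one without WT replicate 1 (edgeR adjusted p = 3.5e-04). In the other 9 the adjusted p was 0.062 to 0.14, and in numbers 1 to 3, with no other WT library, the value was 2.16 (edgeR adjusted p = 0.28).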

How the data were processed

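Between 2 and 10 ng of RNA from sorted cells was amplified over 12 cycles by SMART-seq chemistry, made into libraries with 8 PCR cycles and read as pairs of 50 bp, per the labels' protocols. The authors deposited raw counts: featureCounts 1.6.2 assigned read pairs to genes of GENCODE M17 on GRCm38.p6, per the file headers, with no strand option and without reads matching several places. STAR and FastQC are named in the submitters' processing notes; their versions are not given in the sources used here.

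Counts were scaled with TMM factors, filtered with filterByExpr and tested, KO against WT, over all genes with edgeR 4.0.16 (quasi-likelihood test, genotype as the only term, R 4.3.3), with Benjamini-Hochberg adjustment and a threshold of 0.05. SE is the log2 fold change over the square root of F. CPM use TMM-scaled library sizes, and log2 CPM a prior count of 2. GC content came from GENCODE M21 transcripts. Alternatives were other scalings and filters, DESeq2 1.42.0, limma-voom (limma 3.58.1), a robust fit, a threshold of 0.01, blocks by replicate or library number, a term for the library numbers, each set of numbers alone, and leaving out each library. The procedure was also run on simulated counts. These were drawn from the same mean per gene in all libraries, apart from set genotype changes, without a difference between library numbers. The simulation therefore cannot speak for libraries split in that way, and no result here rests on it. The 21 pairs of libraries within a genotype all differed beyond sampling noise.

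Members, lists and alternatives were chosen with earlier results of these data known. Named genes were the members, pathway genes that passed, the most abundant gene of each list where none passed, the 3 genes nearest in pattern to each member, Tox and the sort genes, and the leading markers of each cell type; other genes (Il2ra, Il2rb, Il2rg, Stat5a, Stat5b, Osm, Pim2, Irf1, Ifng, Il10, Klre1, Klra8, Cd4, Cd8a) were chosen after their values were seen. The result of 1 pathway list is not reported here.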

Additional observations from a re-analysis of the deposited data

Results flagged for a closer look

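The sets of libraries looked at numbered 20 (6 SOCS family genes and Il27ra, Tec, Tox and Pdcd1, each in KO and in WT). In 3 of them a library's gap to the nearest other exceeded the 95% critical value of Dixon's ratio of gap to range. For normally distributed values chance gives about 1 in 20. The ratios were taken on CPM without logs, where that share need not hold, and were not taken on log2 CPM. Socs1 in WT was 965 CPM in replicate 1 against 8.70 CPM in the next library, a ratio of 0.996 where 0.829 is critical. Socs5 in KO was 28.6 CPM in replicate 1 against 8.73 CPM (0.746, critical 0.625). Tec in KO was 10.3 CPM in replicate 2 against 6.41 CPM (0.648, critical 0.625). On this scale Tec in WT was not flagged (0.595, critical 0.829), with replicate 1 at 1.59 CPM and the next library at 69.2 CPM.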

How the results depend on the processing

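Over 27 alternatives, 1 of which (library numbers 1 to 3) could not give a value for Socs2, the members kept their side of the threshold except Socs3, which limma-voom with quality weights called higher (1.74), making 1 member called. Direction held throughout for Socs2. It turned for Cish with scaling to T cell genes (-0.50), for Socs1 within library numbers 1 to 3 (-0.51) and for Socs3 with the replicate block by library number (-0.25). Socs5 turned with limma-voom (-0.094), the block by library number (-0.27), the term for the library numbers (-0.21) and within numbers 4 to 8 (-0.19) and 1 to 3 (-0.043). Socs7 turned with limma-voom (0.75), the block by library number (2.74), the term (0.10) and within numbers 1 to 3 (5.71). Without 1 library, values ranged from 0.06 to 5.57 for Socs1, -3.22 to -1.56 for Socs2, 0.60 to 1.46 for Socs3, -0.46 to 0.96 for Socs5, -0.68 to 0.32 for Socs7 and 0.06 to 0.76 for Cish; genes higher numbered 10 to 443 and lower 143 to 1201, and pathway genes higher 0 to 7 and lower 0 to 2. The causes were not tested. Against 61 genes higher and 384 lower, and 1 pathway gene each way, DESeq2 gave 613 and 999 (pathway 10 and 4), limma-voom 204 and 680 (8 and 2), and with quality weights 2562 and 2768 (19 and 15). Scaling to T cell genes gave 17 and 1862 (0 and 13), removal of immunoglobulin genes 222 lower (0 pathway genes lower), no filter 39 higher (0 pathway genes lower), the stricter filter 2 pathway genes higher, and a threshold of 0.01 gave 7 and 121 (0 pathway genes lower). The term for the library numbers gave 116 higher (pathway 2 and 0), numbers 4 to 8 alone 121 and 1033 (3 pathway genes lower) and numbers 1 to 3 alone 316 and 79 (2 and 0).

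Whether the replicate numbers of the titles pair the libraries could not be decided. Deviations from group means correlated at 0.289 for number 1, -0.249 for number 2, -0.22 for number 3 and 0.295 for number 4. All pairs within a set of library numbers correlated above 0 and all pairs across the sets below 0. The sign therefore followed the sets and says nothing on pairing by title. With blocks by title number or by library number, 0 genes were called higher and 0 lower, and 0 pathway genes either way. With the block by title number Socs1 was 3.83 and Socs3 1.48. Library numbers 2 and 6, the only ones in both genotypes, correlated at 0.317 and 0.131, and unmatched numbers did so as much: WT number 2 with KO numbers 1 and 3 at 0.289 and 0.297, and WT number 6 with KO number 4 at 0.304.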
